A study of Mus musculus with 6 samples.

Results

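The 10 genes described here encode the enzymes that make fatty acids from carbohydrate carbon (Acly, Acaca, Acacb, Fasn, Scd1, Scd2 and Me1), a lipogenic cofactor (Thrsp) and the transcription factors that drive the program (Srebf1 and Mlxipl). They were chosen by symbol, and each was present once among the 23282 rows of every count file. All 10 passed the filter on low counts and were tested with 12995 genes in all. RNA came from whole interscapular brown adipose tissue (BAT) of male C57BL/6N mice aged 5 weeks, with 3 wild-type (WT) mice and 3 Letmd1 KO mice. LETMD1 is a mitochondrial matrix protein enriched in brown adipocytes. The KO mice are homozygous for a knockout-first allele, derived from 1 embryonic stem cell clone, in which an intronic lacZ and neomycin cassette interrupts the gene in every cell of the body. The labels give no treatment, litter or cage.

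De novo lipogenesis turns citrate exported from mitochondria into acetyl-CoA, carboxylates it to malonyl-CoA, extends it to palmitate with electrons from NADPH, and desaturates the product. The transcription factors SREBP1 (from Srebf1) and ChREBP (from Mlxipl) raise transcription of these enzymes in response to insulin and to glucose metabolites. In BAT the pathway is highly expressed, is induced by cold together with fatty acid oxidation, and supplies lipid for storage and combustion.

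The start regions of 4 of these genes are shown, picked for their differing RNA values below. Fasn and Acly RNA fell steeply with wide spread among KO mice, Mlxipl RNA fell less and more evenly, and Srebf1 RNA did not pass the test. Whether the start regions bear on these values was not tested. Each sequence is the 250 bases before a RefSeq start site on GRCm38.p6, written 5′ to 3′ on the gene's own strand. Capitals mark the E-box CACGTG, the NF-Y box CCAAT and the Sp1 box GGGCGG on either strand, with neighbouring matches run together where they touch or overlap.
Fasn, chr11:120824548-120824797, minus strand: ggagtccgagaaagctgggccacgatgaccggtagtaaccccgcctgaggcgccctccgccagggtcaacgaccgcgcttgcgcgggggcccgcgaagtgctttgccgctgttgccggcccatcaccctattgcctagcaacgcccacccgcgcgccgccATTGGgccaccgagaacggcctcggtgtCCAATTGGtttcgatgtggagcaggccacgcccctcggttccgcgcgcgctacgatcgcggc
Acly, chr11:100528001-100528250, minus strand: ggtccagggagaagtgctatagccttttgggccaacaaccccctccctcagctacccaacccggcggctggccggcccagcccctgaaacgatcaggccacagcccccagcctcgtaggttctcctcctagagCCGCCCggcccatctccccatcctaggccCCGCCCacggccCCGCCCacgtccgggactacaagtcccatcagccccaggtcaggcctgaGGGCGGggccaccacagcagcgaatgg
Mlxipl, the more upstream of its 2 start sites, chr5:135089640-135089889, plus strand: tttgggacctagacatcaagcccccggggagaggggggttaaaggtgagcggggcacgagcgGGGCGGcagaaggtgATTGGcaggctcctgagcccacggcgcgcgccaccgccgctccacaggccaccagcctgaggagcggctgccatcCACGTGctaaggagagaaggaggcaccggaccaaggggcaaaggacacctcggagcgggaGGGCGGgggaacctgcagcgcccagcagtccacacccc
Srebf1, most downstream of its 3 start sites, chr11:60210472-60210721, minus strand: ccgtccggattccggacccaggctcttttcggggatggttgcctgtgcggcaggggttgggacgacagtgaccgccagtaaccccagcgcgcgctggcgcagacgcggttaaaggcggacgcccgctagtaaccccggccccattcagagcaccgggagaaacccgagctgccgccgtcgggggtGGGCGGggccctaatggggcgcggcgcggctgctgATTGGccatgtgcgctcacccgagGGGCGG

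The Fasn window held 3 NF-Y boxes, beginning 90, 62 and 59 bases before the start site, the last pair overlapping. The Acly window held 4 Sp1 boxes, and the Mlxipl window held an E-box at 98 bases, an NF-Y box at 173 and 2 Sp1 boxes. The window before the other Mlxipl start site, not shown, held none of the motifs searched. In the Srebf1 window the NF-Y box lay 30 bases before the start site. RefSeq gave 12 windows for 8 of the 10 genes, with Scd1 and Scd2 not matched. Of these 12, 7 held an NF-Y box, against 33.8% of the 32851 windows of that length that were searched. A Sp1 box was in 5 (32.7% of all searched) and the E-box in 1 (6.02% of all searched). The windows searched left out 1 chromosome, which carries none of the 10 genes. The sterol element core CACCCCA was in 0 of the 12 and in 6.68% of all windows, and a pair of E-boxes 5 bases apart was in none of either. These matches describe letters, and whether a factor bound there was not measured.

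The libraries held between 6669577 and 14574273 counts. Letmd1 had 5658, 6490 and 5266 counts in the WT mice and 0, 0 and 1 in the KO mice, so every library matched its label, by tags from the 3′ end of the gene, downstream of the cassette. Values below are counts scaled to a common library size (CPM) on libraries scaled by TMM, a trimmed-mean method. These libraries read only the 3′ end of each transcript, so their counts do not scale with transcript length. Adipocyte markers (8 genes) summed to between 34363 and 39968 CPM in WT mice and between 12321 and 22072 in KO mice, with 5 lower and 1 higher in KO. All 10 macrophage markers were higher in KO mice, where they summed to between 1357 and 3234 CPM against 182 to 243 in WT, as were all 6 fibroblast markers and all 7 tested Schwann cell markers. Of the endothelial markers, 3 of 6 were lower, and 5 of 8 brown adipocyte markers were lower. Of 2 lymphocyte markers tested, 1 was higher, and the 1 skin marker tested did not pass. Skeletal muscle markers (11 tested, 1 higher) summed to 7.82 and 8.62 CPM in WT replicates 3 and 1, to 347 in WT replicate 2, and to between 268 and 1028 in KO mice. Letmd1 KO replicate 2 stood apart, with the highest adipocyte, macrophage and fibroblast sums of the KO mice and the lowest brown adipocyte sum. Its brown adipocyte markers summed to 1846 CPM, against 2881 and 3271 CPM in KO replicates 1 and 3. For some genes, results are also given without KO replicate 2. In bulk tissue, fewer cells of a type and less RNA per cell cannot be told apart.

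Of the 10 lipogenic genes, 7 were lower in Letmd1 KO BAT (Fasn, Thrsp, Acaca, Acly, Acacb, Scd1 and Mlxipl) and none was higher, by the quasi-likelihood test of edgeR, adjusted over all genes by the Benjamini-Hochberg method. Over all genes tested, 22.3% were called lower and 23.7% higher. Their median on the log2 scale was -2.76, against 0.03 over all genes. All 7 were lower by at least 4-fold, a call that 1.92% of all tested genes met. In 8 of the 10, which adds Me1, every KO mouse lay below every WT mouse, as in 27.2% of all genes tested. With libraries scaled by their totals alone, 1368 genes were lower and 5899 higher against 2896 and 3082 with TMM, the median of all genes was 0.45, and the same 7 lipogenic genes were lower. They were also lower with muscle RNA as a covariate and without WT replicate 2 and KO replicate 3, the mice of each group with the most muscle RNA. Together the 10 genes took 3.72%, 4.55% and 4.11% of all counts in the WT mice and 0.446%, 1.26% and 0.414% in the KO mice. The Wilson 95% intervals of these shares were at most 0.0130 percentage points to either side and cover counting error only.

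**Figure D1:**
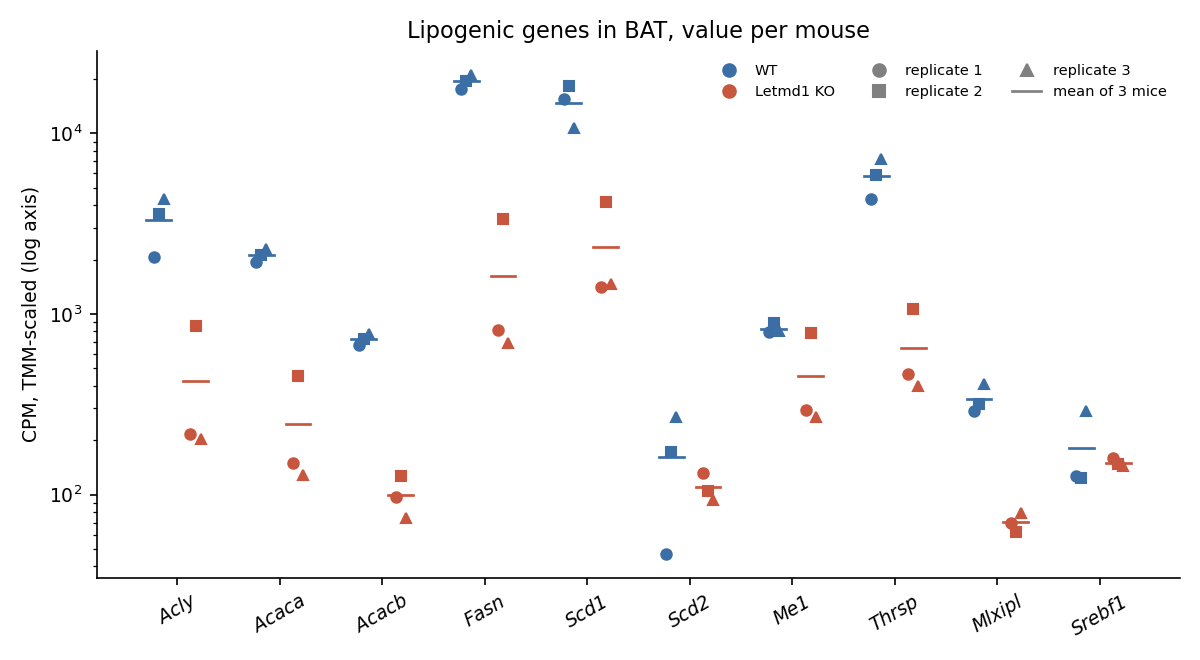
TMM-scaled CPM on a log axis for each lipogenic gene in each of 3 WT (blue) and 3 Letmd1 KO (red) mice, with the marker shape giving the replicate and the bar the group mean. For 7 of the genes the plot shows every KO mouse far below every WT mouse, Me1 does so narrowly because KO replicate 2 (788 CPM) nearly meets WT replicate 1 (796 CPM), and Scd2 and Srebf1 overlap.

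ATP-citrate lyase, which splits cytosolic citrate into acetyl-CoA and oxaloacetate, opens the pathway. Its gene Acly (chr11:100476353-100528000, GRCm38) stood at 2078, 3567 and 4351 CPM in the WT mice and at 217, 856 and 202 CPM in the KO mice. The groups did not overlap, although WT replicate 1 was well below the other WT mice and KO replicate 2 well above the other KO mice. The log2 fold change was -2.97 ± 0.56 (SE, n = 3 per group), 7.85-fold lower, with an adjusted p of 0.00219 in edgeR's quasi-likelihood test.

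Acetyl-CoA carboxylase makes malonyl-CoA, and its isoforms differ in place: ACC1, from Acaca, feeds synthesis in the cytosol, and ACC2, from Acacb, lies at the mitochondrial surface, where malonyl-CoA restrains fatty acid entry for oxidation. Acaca (chr11:84129672-84401651) was at 1941, 2110 and 2293 CPM in WT and at 150, 456 and 129 CPM in KO mice. Acacb (chr5:114146535-114250761) was at 670, 729 and 772 CPM in WT and at 96.6, 127 and 74.1 CPM in KO mice. WT mice were tight for both genes, and KO replicate 2 was high for Acaca and only slightly so for Acacb. In edgeR's test Acaca was 8.65-fold lower (log2 fold change -3.11 ± 0.44, adjusted p 0.00045), and Acacb was 7.31-fold lower (-2.87 ± 0.19, adjusted p 9.74e-06).

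Fatty acid synthase carries out all steps from malonyl-CoA to palmitate. Fasn (chr11:120805846-120824547) ranked 3 among all genes by mean CPM in WT BAT and 39 in KO BAT. Its level was 17689, 19448 and 21147 CPM in WT and 818, 3354 and 691 CPM in KO mice. KO replicate 2 held several times the level of the other KO mice and was still far under the lowest WT mouse. Fasn showed the largest change of the 10 genes, 12-fold lower (log2 fold change -3.58 ± 0.57, edgeR adjusted p 0.000898), and 0.323% of all tested genes had a lower log2 fold change.

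Stearoyl-CoA desaturases put the first double bond into palmitate and stearate. Scd1 (chr19:44394455-44407879) ranked 4 in WT and 18 in KO BAT, at 15521, 18200 and 10755 CPM in WT and 1418, 4161 and 1461 CPM in KO mice. The groups were well apart, and Scd1 was 6.32-fold lower (log2 fold change -2.66 ± 0.43, edgeR adjusted p 0.000966). Scd2 (chr19:44293674-44306864), a paralog expressed at far lower levels here, was at 47.1, 172 and 267 CPM in WT and at 131, 105 and 93.5 CPM in KO mice. The WT mice spanned a 5.68-fold range that enclosed all KO mice, and Scd2 did not pass edgeR's test (-0.56 ± 0.47, adjusted p 0.356). Without WT replicate 1, the low WT mouse, it did pass (-1.01, edgeR adjusted p 0.00733). Among 75-base stretches of Scd1 transcripts, 3.15% also occur in another Scd gene, and 9.12% of those in the last 500 bases of its transcripts, the part these libraries read. For Scd2 these shares were 1.78% and 0%, so some Scd1 reads could have been assigned to another Scd gene.

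Malic enzyme (Me1, chr9:86581371-86695953) returns oxaloacetate carbon to pyruvate by way of malate and yields NADPH for chain synthesis. It was at 796, 887 and 801 CPM in WT and at 295, 788 and 271 CPM in KO mice. KO replicates 1 and 3 were at about a common level far below WT, and KO replicate 2 was just under the lowest WT mouse. Me1 did not pass edgeR's test with all mice (-0.88 ± 0.36, adjusted p 0.0700), and it did without KO replicate 2 (-1.55, edgeR adjusted p 2.22e-05).

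Thrsp (chr7:97412938-97417730) encodes a small protein, induced by thyroid hormone and carbohydrate, that acts with its relative MIG12 (from Mid1ip1) on acetyl-CoA carboxylase. It ranked 14 in WT and 162 in KO BAT. Levels were 4337, 5881 and 7238 CPM in WT and 468, 1072 and 400 CPM in KO mice. With no overlap between groups, Thrsp was 9.01-fold lower (log2 fold change -3.17 ± 0.38, edgeR adjusted p 0.000183). Mid1ip1 was at 38.4, 44.8 and 162 CPM in WT and at 134, 129 and 177 CPM in KO mice. It did not pass with all mice (0.85 ± 0.47, edgeR adjusted p 0.164), and without the high WT replicate 3 it was higher in KO (1.81, edgeR adjusted p 7.78e-05).

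The transcription factor genes differed from each other. Mlxipl (chr5:135089890-135138382), for the glucose-sensing factor ChREBP, was at 291, 319 and 409 CPM in WT and at 69.6, 62.2 and 79.2 CPM in KO mice. Both groups were tight, KO replicate 2 being the lowest KO mouse, and Mlxipl was 4.82-fold lower (log2 fold change -2.27 ± 0.16, edgeR adjusted p 1.09e-05). Srebf1 (chr11:60199089-60222581), for the insulin-responsive factor SREBP1, was at 126, 123 and 291 CPM in WT and at 159, 148 and 144 CPM in KO mice. All 3 KO mice lay between the WT mice, and Srebf1 did not pass (log2 fold change -0.26 ± 0.29, edgeR adjusted p 0.502).

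Its sign was not stable: it was 0.26 without WT replicate 3 (edgeR adjusted p 0.0966), 0.17 with scaling by library totals, 0.08 with quantile normalization and 0.30 with muscle RNA as a covariate. SREBP1a and SREBP1c, and the isoforms of ChREBP, are made from different start sites of a gene with shared 3′ ends, and 3′ counts give their sum. Srebf1 shares exonic bases with Rai1 on the other strand, Me1 with A330041J22Rik and Mlxipl with Gm43500, and the use of strand in counting is not given in the sources used here.

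KO replicate 2 held more lipogenic RNA than the other KO mice for some genes and not for others. It was at least 2-fold above both other KO mice for Fasn, Acly, Acaca, Scd1, Me1 and Thrsp, 6 of the 10, against 2.52% of all genes tested. Its CPM divided by the mean of the other KO mice was 4.45 for Fasn, 4.09 for Acly, 3.27 for Acaca, 2.89 for Scd1, 2.79 for Me1 and 2.47 for Thrsp. The same ratio was 1.49 for Acacb, 0.98 for Srebf1, 0.93 for Scd2 and 0.84 for Mlxipl. As a percent of the WT mean, KO replicate 2 retained 17.3% of Fasn, 28.1% of Scd1 and 95.2% of Me1. KO replicates 1 and 3 retained 4.21% and 3.56% of Fasn, 9.57% and 9.85% of Scd1, and 35.6% and 32.7% of Me1.

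By the same rule, which 2.52% of all genes tested met, other listed genes were also high in that mouse. They were Slc25a1, Acss2 and Slc25a10 of 11 citrate and acetyl-CoA genes and Tkt of 11 NADPH genes. The others were Elovl3 and Elovl6 of 14 tested elongation genes, Insig1 of 19 SREBP1 control genes and Fdft1 of 19 tested sterol synthesis genes. Of the 8 adipocyte markers, 4 were too (Adipoq, Cidec, Cfd and Retn), and of the 10 macrophage markers 2 (Cd68 and Gpnmb). Their part in the lipogenic values was not tested. Leaving this mouse out, 8 of the 10 lipogenic genes were lower, Me1 being added. The log2 fold changes without it were -4.69 for Fasn, -3.99 for Acly, -3.92 for Acaca, -3.75 for Thrsp and -3.37 for Scd1. Acacb at -3.09 and Mlxipl at -2.19 moved little.

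Relative to adipocyte markers, the same 7 genes were lower in every KO mouse than in any WT mouse. For each mouse, the mean log2 CPM of the 8 adipocyte markers was taken from the log2 CPM of each gene. On that scale Fasn was 3.91 ± 0.23 in WT and 0.744 ± 0.678 in KO mice (SD, n = 3), a difference of -3.17. The differences were -2.55 for Acaca, -2.48 for Thrsp, -2.45 for Acly, -2.10 for Acacb, -2.02 for Scd1 and -1.46 for Mlxipl. They were -0.26 for Me1, 0.55 for Scd2 and 0.66 for Srebf1, with overlapping groups. In each of the 7, every KO mouse lay below every WT mouse. The share of all genes that did so was not counted on this scale, and was 27.2% on TMM-scaled CPM. The exact two-sided permutation p was 0.1 for each of the 7, the smallest that 3 against 3 mice can give, and 0.143 after adjustment over the 10 genes. Scaling the libraries to the adipocyte markers moved the median of all genes to 1.34, left the 7 genes lower (log2 fold change from -2.54 for Fasn to -0.93 for Mlxipl) and made Srebf1 (1.07) and Scd2 (0.74) higher, each by edgeR's test.

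Ratios within a mouse, which do not depend on library scaling, showed how the genes moved against each other, over 7 pairs. Srebf1 divided by Mlxipl was 0.434, 0.386 and 0.711 in the WT mice and 2.28, 2.38 and 1.82 in the KO mice, so the gene with more CPM switched from Mlxipl to Srebf1. The log2 ratio differed by 2.12 (exact permutation p 0.1, adjusted 0.14). Thrsp over Mid1ip1 was 113, 131 and 44.8 in WT and 3.48, 8.33 and 2.26 in KO mice, a log2 difference of -4.43. Fasn over Scd1 was 1.14, 1.07 and 1.97 in WT and 0.576, 0.806 and 0.473 in KO mice, so Fasn exceeded Scd1 in each WT mouse and was below it in each KO mouse. Acly over Acss2 (log2 difference -0.79) also had no overlap between groups. Scd1 over Scd2 (-2.57) was 329, 106 and 40.2 in WT and 10.8, 39.8 and 15.6 in KO mice. Its groups were apart only narrowly, as WT replicate 3 and KO replicate 2 nearly met. All of these had the same exact permutation p of 0.1, adjusted 0.14. The share of other gene pairs with no overlap between groups was not counted, so these pairs have no background to be read against.

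Acaca over Acacb was steady in WT, at 2.90, 2.89 and 2.97, and in KO mice was 1.56 and 1.74 in replicates 1 and 3 and 3.59 in replicate 2. Its log2 difference of -0.45 had an exact permutation p of 0.4, and that of Srebf1 over Srebf2 (-0.11) had 0.9.

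**Figure D2:**
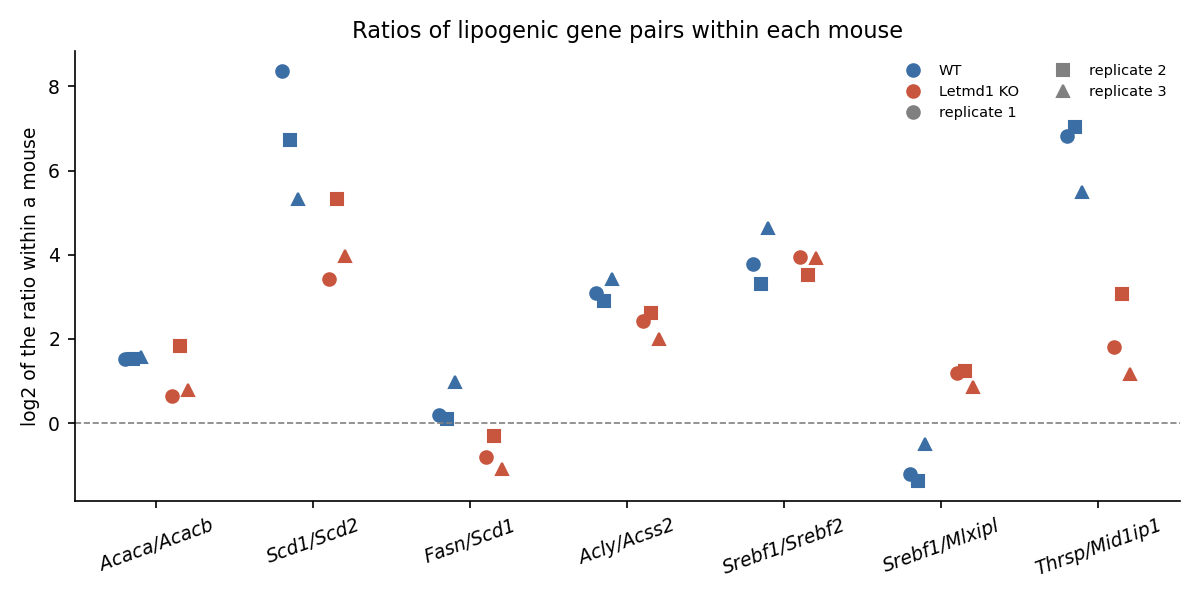
The log2 ratio of the CPM of 7 gene pairs within each of 3 WT (blue) and 3 Letmd1 KO (red) mice, with the marker shape giving the replicate. Srebf1/Mlxipl lies below 0 in all WT mice and above 0 in all KO mice, Fasn/Scd1 does the opposite, and Acaca/Acacb and Srebf1/Srebf2 overlap.

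Upstream of the 10 genes, RNA for the supply of citrate and acetyl-CoA was lower at most steps: 9 of 11 listed genes fell and 1 rose (median log2 fold change -1.75). Metabolites were not measured. For this and the later lists, the shares over all genes tested were 22.3% lower and 23.7% higher. The mitochondrial citrate carrier Slc25a1 was at 934, 1101 and 1102 CPM in WT and at 89.0, 363 and 68.6 CPM in KO mice (-2.60 ± 0.55, edgeR adjusted p 0.00409). Acss2, which makes acetyl-CoA from acetate, fell too (-2.31). The dicarboxylate carrier Slc25a10 rose, from a mean of 11.4 to 32.9 CPM (1.51, edgeR adjusted p 0.0260), a call lost on leaving out any 1 WT mouse (edgeR adjusted p 0.0555 to 0.0767), with a log2 fold change of 0.67 without KO replicate 2.

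Of 11 genes for cytosolic NADPH, 8 fell and none rose (median -0.71). The pentose phosphate enzyme transketolase, Tkt, fell most, from 1791, 2178 and 2224 CPM in WT to 218, 576 and 271 CPM in KO mice (-2.54). The NADPH-yielding dehydrogenases changed less: Pgd by -1.33, Idh1 by -0.71 and G6pdx by -0.50. The call for G6pdx was not made with scaling by library totals (-0.08, edgeR adjusted p 0.583). That for Pgd was lost with adipocyte scaling (-0.039, edgeR adjusted p 0.911).

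Among genes of malonyl-CoA metabolism and of acetyl-CoA carboxylase control, 8 of the 12 tested fell and none rose (median -0.54). The AMPK subunit gene Prkag2 fell most (-1.32), and malonyl-CoA decarboxylase, Mlycd, fell by 1.03 on the log2 scale, from 92.8, 102 and 113 CPM to 50.1, 51.1 and 49.4 CPM.

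Chain elongation and desaturation was the list with the widest spread, 8 of 14 tested genes falling and 4 rising (median -0.81). Elovl3, which makes very long saturated chains and marks active BAT, was at 16.9, 40.5 and 34.9 CPM in WT and at 0.769, 2.91 and 0.353 CPM in KO mice (-4.74 ± 0.59). Elovl6, which extends palmitate to stearate, went from 1107, 1368 and 1194 CPM to 99.3, 296 and 87.2 CPM (-2.93 ± 0.43, edgeR adjusted p 0.000515). The fall in Elovl6 was of the size seen for Acly and Acaca.

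In the opposite direction, Fads3 rose from 8.09, 7.21 and 7.43 CPM to 125, 123 and 122 CPM (4.02 ± 0.12), with all KO mice nearly equal. Fads1, the delta-5 desaturase, rose by 1.54, and Fads2 had too few counts to be tested. Scd3, a paralog of Scd1 picked out here after its values were seen, rose from 4.96, 9.44 and 4.82 CPM to 61.8, 47.4 and 60.0 CPM (3.13 ± 0.26, edgeR adjusted p 2.22e-05). Scd1 remained far more abundant than Scd3 in every KO mouse. Of 75-base stretches of Scd3 transcripts, 3.20% are shared with another Scd gene and none of those in the last 500 bases.

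Among genes that control SREBP1, 7 of 19 genes fell and 1 rose (median -0.28), against 22.3% lower and 23.7% higher over all genes tested. The direction of this list depended on scaling, with 2 lower, 5 higher and a median of 0.14 by library totals. The SREBP escort protein gene Scap (-0.21) and Srebf2 (-0.04) did not pass, and their sign turned with library-total scaling (0.21 and 0.38). Insig1, which holds SREBP in the endoplasmic reticulum and is itself an SREBP target, was at 45.5, 59.3 and 78.9 CPM in WT and at 20.1, 55.6 and 22.3 CPM in KO mice. It did not pass with all mice (-0.92, edgeR adjusted p 0.0659) and did without KO replicate 2 (-1.52, edgeR adjusted p 0.000895).

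Insig2 fell by 0.42 on the log2 scale (edgeR adjusted p 0.0443), a call lost without WT replicate 1 or 2 or KO replicate 1 or 3 (edgeR adjusted p 0.114 to 0.139). Nr1h3, for the oxysterol receptor LXRα that induces Srebf1, fell by 0.99 on the log2 scale. The coactivator gene Ppargc1b fell by 1.08, from 423, 426 and 432 CPM to 217, 150 and 236 CPM, and Nfya, for a subunit of NF-Y, rose (1.07, edgeR adjusted p 0.00863), a call lost with muscle RNA as a covariate (1.09, edgeR adjusted p 0.0794).

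Among ChREBP partners and steps of glucose entry, 7 of 13 tested genes fell and 2 rose (median -0.57). Slc2a4, for the insulin-responsive glucose carrier GLUT4, went from 443, 519 and 587 CPM to 128, 129 and 159 CPM (-1.90 ± 0.14, edgeR adjusted p 1.67e-05), a call lost with adipocyte scaling (-0.57, edgeR adjusted p 0.0918). Hk2, for hexokinase 2, fell by 2.29 on the log2 scale, and Slc2a1, for GLUT1, rose from a mean of 7.59 to 19.9 CPM (1.39), a call lost with muscle RNA as a covariate (0.94, edgeR adjusted p 0.0879). These shifts ran opposite ways for the carriers, at levels many times higher for Slc2a4 in WT mice.

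The ChREBP dimer partner gene Mlx fell by 0.57 on the log2 scale, a call lost with scaling by library totals (-0.15, edgeR adjusted p 0.362). Mlxip, the paralog of Mlxipl, did not pass (-0.09, and 0.33 with library totals). Txnip, a well-known target of ChREBP and of MondoA, the product of Mlxip, was at 1629, 1906 and 1237 CPM in WT and at 1758, 1872 and 1577 CPM in KO mice (0.13 ± 0.17, edgeR adjusted p 0.581). Its log2 fold change was 0.54 with library totals and 0.99 with quantile normalization, both past the threshold, and -0.04 without WT replicate 3. The KO mice were thus within the WT range for Txnip while Mlxipl itself was far below it.

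Of the insulin to mTORC1 genes, 7 of 16 fell and 1 rose (median -0.35), against 22.3% lower and 23.7% higher over all genes tested. Library totals instead gave 2 lower, 4 higher and a median of 0.07. Mtor, for the kinase of mTORC1 and picked out after its values were seen, was at 130, 136 and 120 CPM in WT and at 42.6, 41.0 and 38.8 CPM in KO mice (-1.66 ± 0.11, edgeR adjusted p 7.71e-06), with both groups tight. The insulin receptor Insr fell by 0.73 and Akt2 by 0.88 on the log2 scale. The call for Insr was lost with scaling by library totals (-0.31, edgeR adjusted p 0.0997). Irs2 showed the largest fall (-2.10, edgeR adjusted p 0.0325), which rested on WT replicate 3: it was at 7.55, 4.24 and 33.6 CPM in WT and at 4.62, 3.57 and 2.47 CPM in KO mice, and was -0.76 without that mouse (edgeR adjusted p 0.146). The Irs2 call was also lost on leaving out any 1 KO mouse (edgeR adjusted p 0.0665 to 0.109). The mTORC1 inhibitor gene Tsc1 rose slightly (0.56), a call lost without KO replicate 3 (edgeR adjusted p 0.0556) and with muscle RNA as a covariate (0.215).

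**Figure D3:**
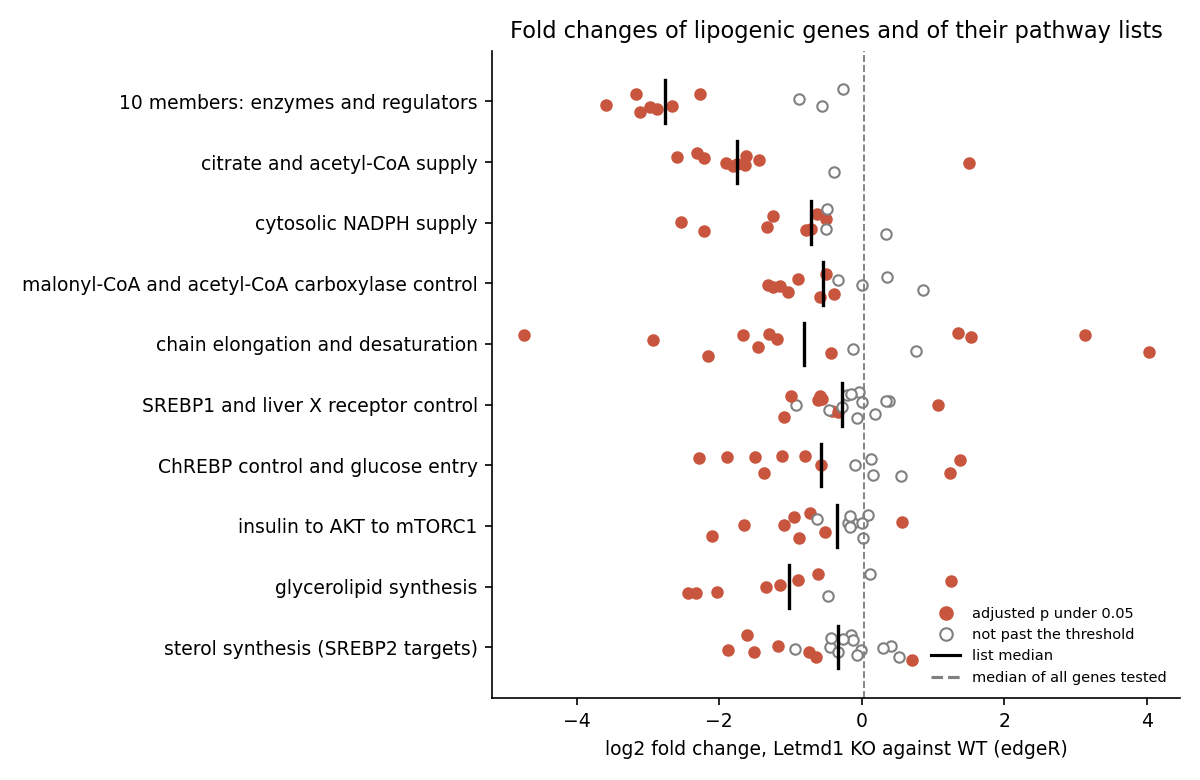
Log2 fold change (Letmd1 KO against WT, edgeR) of each tested gene in the 10 lipogenic genes and 9 pathway lists, filled where the adjusted p is under 0.05, with a bar at the list median and a dashed line at the median of all genes tested (0.03). The lipogenic genes lie furthest left with a median of -2.76, and citrate and acetyl-CoA supply follows at -1.75. SREBP1 control (-0.28), sterol synthesis (-0.33) and the insulin list (-0.35) lie nearest the dashed line.

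For comparison, 7 of 10 tested genes of glycerolipid synthesis fell and 1 rose (median -1.02), led by Dgat2, which makes triglyceride (-2.44), with Lpin3 rising (1.25). Gpat4 and Gpat3 stand in the files under their older symbols Agpat6 and Agpat9, were not in these counts and were looked up after the values were seen. Agpat6 fell from 1215, 945 and 550 CPM to 155, 192 and 152 CPM (-2.44), while Agpat9 rose from 20.9, 7.74 and 4.04 CPM to 63.7, 64.3 and 65.6 CPM (2.55).

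Sterol synthesis, the set of genes driven mainly by SREBP2, had 6 of 19 tested genes falling and 1 rising (median -0.33). Over all genes tested, 22.3% were lower and 23.7% higher. By library totals this list had 4 lower, 3 higher and a median of 0.092. With adipocyte scaling the medians of 8 of the 9 pathway lists were above 0, from 0.25 for glycerolipid synthesis to 1.03 for SREBP1 control, and that of citrate and acetyl-CoA supply stayed below 0 (-0.52). Fdft1, for squalene synthase, fell (-1.88), and Lss, for lanosterol synthase, rose (0.71, edgeR adjusted p 0.0439), a call lost on leaving out any 1 mouse other than WT replicate 3 (edgeR adjusted p 0.0649 to 0.133).

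Srebf1 was at least 2-fold above both other WT mice in WT replicate 3, the 1 gene of the 10 to be so, against 3.01% of all genes tested. In the pathway lists the genes so raised included Mid1ip1 and Hlcs, Irs1 and Irs2, and the SREBP2 targets Mvd and Msmo1. In the same mouse Fasn, Acaca, Acacb, Acly, Scd2, Thrsp and Mlxipl were the highest of the WT values and Scd1 the lowest.

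The genes whose pattern over the 6 mice was most like that of Fasn, by the root mean square (RMS) difference of log2 CPM deviations among 8724 genes, were Pygl, Apoc1, Ntrk2, Gm6484 and Gys2. Pygl, for a glycogen phosphorylase, was the closest by far (RMS 0.0861, the next 0.285), at 1659, 1863 and 2152 CPM in WT and 78.2, 280 and 64.5 CPM in KO mice. Gys2, for a glycogen synthase, was at 23.8, 20.7 and 36.9 CPM in WT and 0.440, 3.44 and 0.588 CPM in KO mice. Since these genes were selected for a pattern like that of Fasn, their lower level in KO mice and their higher level in KO replicate 2 follow from the selection. The nearest to Mlxipl were Rom1, Ahcyl1, Rps6kl1, Gnas and Ldhd (RMS 0.136 to 0.165), each with a log2 fold change between -2.33 and -2.15, again as the selection implies. The nearest to Srebf1 were Dtx2, Zfp36l1, Tfrc, Zfyve21 and Sik1 (RMS 0.0701 to 0.125), each highest in WT replicate 3, like Srebf1, by the same selection.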

How the data were processed

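QuantSeq 3′ mRNA libraries from BAT of 3 WT and 3 Letmd1 KO mice were read as single ends of 75 bases. The authors aligned reads with Bowtie2 to mm10 and used bedtools to count them per gene. The counts deposited for each mouse are whole numbers, not normalized. Versions, annotation and use of strand are not given in the sources used here. Groups came from the sample labels, and no other columns were present.

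Counts were tested in R 4.3.3 with edgeR 4.0.16 (quasi-likelihood test, TMM scaling, genotype as the only term), after its default filter (minimum count 10, minimum total 15), which kept 12995 of 23282 rows. Benjamini-Hochberg adjustment was over all tested genes, with a threshold of 0.05. With 6669577 to 14574273 counts per mouse, a floor of 3 counts equals 0.176 to 0.397 CPM. The chi-square per degree of freedom between mice of a genotype was 11.5 to 34.0, beyond sampling noise. The labels do not tie mice to litters, so p-values set the difference between genotypes against the spread between these samples only. Within-mouse ratios were tested with an exact two-sided permutation test (scipy 1.17.1), adjusted over the pairs or genes. Log2 CPM for nearest patterns used a prior count of 2.

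Named besides the 10 genes were, per pathway list, the most negative and most positive called gene with a mean of at least 20 counts, listed direct partners, and the 5 nearest patterns with a mean of at least 100 counts. The members and lists were chosen with earlier results of these data known. Gene positions came from GENCODE vM21 on GRCm38, the build that mm10 names, and start regions from RefSeq on GRCm38.p6. Alternatives were library-total, quantile (limma 3.58.1) and adipocyte-marker scaling, DESeq2 1.42.0, other filters and thresholds, a muscle covariate, a replicate block and leaving out mice. The steps were checked on simulated counts.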

Additional observations from a re-analysis of the deposited data

How the results depend on the processing

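Fasn, Acaca, Acacb, Acly, Scd1, Mlxipl and Thrsp stayed lower in Letmd1 KO and past the threshold under all 15 alternatives. Of the 150 values of the 10 genes, 139 kept direction and call, 4 gained a call and 7 changed sign, among Scd2, Me1 and Srebf1, and the cause was not tested. Each of the 10 genes had at least 437 counts in every mouse, whereas Fads2 was too low to test at this depth, and 3 mice per group cannot give an exact p under 0.1. The muscle covariate and the adipocyte scaling use RNA of these samples that itself differed between groups.

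With adipocyte scaling, 222 lower and 10271 higher genes were called, 2 of the lipogenic genes were higher, and Scd2 (0.74), Me1 (0.24) and Srebf1 (1.07) changed sign. Genes lower and higher were 3 and 2 in citrate supply, 2 and 4 in NADPH supply, 0 and 7 in carboxylase control, 2 and 7 in elongation and desaturation, 0 and 16 in SREBP1 control, 1 and 7 in ChREBP control, 0 and 9 in the insulin list, 3 and 3 in glycerolipid synthesis and 1 and 12 in sterol synthesis. Sign also changed for Prkag2 (0.042), Ppargc1b (0.28), G6pdx (0.78), Idh1 (0.57), Mlycd (0.27), Insig1 (0.24), Insig2 (0.85), Scap (1.12), Nr1h3 (0.31), Srebf2 (1.22), Mlx (0.75), Mlxip (1.21), Insr (0.57), Akt2 (0.46), Dtx2 (1.07), Zfp36l1 (1.11), Tfrc (1.09), Zfyve21 (1.09) and Sik1 (1.01). Since the median of all genes moved to 1.34 there, genes whose fall was smaller than that of the markers change sign by construction.

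With library totals, 1368 lower and 5899 higher genes were called, Srebf1 was 0.17, and genes lower and higher were 5 and 1 in NADPH supply, 5 and 2 in carboxylase control, 2 and 5 in SREBP1 control, 5 and 5 in ChREBP control, 2 and 4 in the insulin list and 4 and 3 in sterol synthesis. Sign changed for Scap (0.21), Srebf2 (0.38), Mlxip (0.33), Dtx2 (0.18), Zfp36l1 (0.22), Tfrc (0.17), Zfyve21 (0.18) and Sik1 (0.13). With quantile normalization Srebf1 was 0.080, Zfp36l1 was 0.095, and the lists gave 6 and 1 in carboxylase control and 3 and 2 in SREBP1 control. With the muscle covariate, 1789 lower and 1811 higher genes were called, Srebf1 was 0.30, the lists gave 9 and 0 in citrate supply, 4 and 0 in carboxylase control, 4 and 0 in SREBP1 control, 6 and 1 in ChREBP control, 3 and 0 in the insulin list and 3 and 0 in sterol synthesis, and sign changed for Txnip (-0.084), Dtx2 (0.27), Zfp36l1 (0.28), Tfrc (0.34), Zfyve21 (0.26) and Sik1 (0.44). With no filter Me1 passed (-0.89), and with a mean of at least 50 counts Srebf2 was 0.013. Without WT 2 and Letmd1 KO 3 together, 1912 lower and 1977 higher genes were called, Srebf2 was 0.14, and the lists gave 4 and 0 in the insulin list, 7 and 0 in glycerolipid synthesis and 4 and 0 in sterol synthesis. At an adjusted p under 0.01, 1985 genes were higher and the lists gave 9 and 0 in citrate supply, 4 and 1 in SREBP1 control, 4 and 0 in the insulin list and 4 and 0 in sterol synthesis. With at least 2-fold required, 1149 lower and 1899 higher genes were called, and the lists gave 4 and 0 in NADPH supply, 4 and 0 in carboxylase control, 1 and 1 in SREBP1 control, 3 and 0 in the insulin list and 4 and 0 in sterol synthesis. Relative to Rpl32, Scd2 was -0.99 and Srebf1 -0.88.

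Leaving out 1 mouse in turn gave log2 fold changes of -1.01 to -0.0075 for Scd2, -1.55 to -0.61 for Me1, -0.49 to 0.26 for Srebf1, -0.18 to 0.058 for Srebf2, -0.038 to 0.26 for Txnip, -0.45 to 0.18 for Dtx2, -0.43 to 0.30 for Zfp36l1, -0.51 to 0.37 for Tfrc, -0.47 to 0.16 for Zfyve21 and -0.58 to 0.39 for Sik1. List counts ranged over 0 to 1 higher in citrate supply, 0 to 1 higher in carboxylase control, 4 to 8 lower in SREBP1 control, 0 to 1 higher in the insulin list and 0 to 2 higher in sterol synthesis. The log2 ratio difference of Srebf1 to Srebf2 ranged from -0.41 to 0.26, and the adipocyte-relative difference of Scd2 from -0.25 to 1.08.

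Replicate numbers were shared by the labels of both groups. Deviations of same-numbered mice correlated at 0.069, -0.11 and -0.087, and not every mouse correlated best with its own number. The labels do not say whether same-numbered mice were paired, and correlations of RNA levels cannot decide it. With the replicate block 5599 genes were called against 5978 without it, Me1 passed (-1.06), and carboxylase control had 7 lower and 1 higher genes.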
